A study of Capra hircus with 3 samples.

Results

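The genes described here belong to prolactin and growth hormone signalling in the mammary gland, or act beside it. They are the receptors PRLR and GHR, the kinase JAK2, and the transcription factors STAT5A and STAT5B. The feedback inhibitors SOCS1, SOCS2 and CISH and the epithelial factors ELF5 and NFIB complete the set. All 10 genes were taken by gene symbol, matched to the goat NCBI gene ID, and every deposited locus with that ID was summed. Of the 10 genes, 8 had a deposited locus, out of 13023 protein-coding genes with one, and each of the 8 had 1 locus. STAT5A and STAT5B had none under their symbol and are taken up separately. Mammary gland was sampled from 5 Laoshan dairy goats, 4 years old and in the third lactation, at 10 days (early), 90 days (peak) and 210 days (late) after parturition. No treatment is given for the goats other than anaesthesia for the biopsy. The RNA of the 5 goats was mixed into 1 library per stage, so the animals cannot be separated.

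Prolactin and growth hormone bind receptors of one family, which have no kinase of their own and carry JAK2 on their inner part. Activated JAK2 phosphorylates the receptor and then STAT5, which enters the nucleus and switches on milk protein genes together with factors such as ELF5 and members of the NFI family. STAT5 also switches on CISH and genes of the SOCS family, whose proteins bind the receptor or JAK2 and damp the signal, so their transcripts are often used as a readout of STAT5 activity.

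The values are FPKM, numbers of sequenced fragments scaled by transcript length and by the size of the library, so that levels can be compared between genes. With 1 library per stage there is no spread between replicates, and the differences below have no replicate check and no p-value. A gene is called apart where its FPKM differed at least 2-fold between libraries. The deposited values hold no read numbers or transcript lengths, and no counting error is given for an FPKM. Over protein-coding genes that reached 1 FPKM in each of a pair of libraries, the median log2 ratio was -0.03 for peak over early, -0.01 for late over early and 0.03 for late over peak. The labels of the peak and late columns are in doubt. The study also published per-library FPKM of lncRNAs that it called different between libraries E (early), P (peak) and L (late). For 148 such genes between P and L, 128 lay in the opposite order in the deposited columns. Between E and L, 58 of 135 lay in the published order, and 117 with the 2 columns exchanged. Between E and P it was 36 of 67, and 43 with the exchange. Libraries are therefore called early-labelled, peak-labelled and late-labelled. The effect of an exchange of the last 2 labels is given for the members and the other signalling genes only. Wherever peak or late is written below, the label of the column is meant and not an established stage. With the exchange, all that is said of peak holds for late and the reverse, also for milk genes, other targets and markers.

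PRLR, the prolactin receptor, was the more abundant receptor. Its locus on scaffold NW_005100891.1 from 4066213 to 4260661 had 125 FPKM in the early-labelled, 67.9 FPKM in the peak-labelled and 131 FPKM in the late-labelled library. The peak-labelled library was thus the low one, by 1.85-fold against early and 1.93-fold against late, both short of 2-fold, and the other libraries were nearly level. GHR, the growth hormone receptor, lies on scaffold NW_005100890.1 from 15515334 to 15694803 and had 11.1, 16.7 and 12.0 FPKM in the same order. Here the peak-labelled library was the high one, 1.503-fold above early. The ratio of PRLR to GHR within a library, which does not depend on scaling between libraries, was 11.3 in the early-labelled, 4.08 in the peak-labelled and 10.9 in the late-labelled library. GHR is also known from adipose tissue. Of 9 adipocyte markers, 5 had a locus, and their summed FPKM was 21.99, 8.40 and 10.5 in the same order, with PLIN4 listed at 0 in the late-labelled library. ADIPOQ alone had 15.1, 4.10 and 5.69 FPKM, while LIPE, with 3.06, 1.97 and 4.12 FPKM, was highest in the late-labelled library. PLIN1, PLIN4 and CIDEC were below 1 FPKM in the peak-labelled and late-labelled library. The part of adipocytes in the GHR values was not tested.

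JAK2, the kinase bound to both receptors, was the most even gene of the set. Its locus on scaffold NW_005100737.1 from 6901938 to 7016780 had 30.3 FPKM in the early-labelled and 29.7 FPKM in each of the other libraries, so that the highest and lowest value lay 1.02-fold apart. Among protein-coding genes that reached 1 FPKM in both the peak-labelled and the early-labelled library, 50.0% had a lower ratio of peak over early than JAK2. Relative to this even kinase, the receptor PRLR stood at 4.14, 2.29 and 4.41 times the JAK2 level in the early-labelled, peak-labelled and late-labelled library.

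STAT5A and STAT5B could not be given a value. The symbol STAT5A is not among the genes of the table used here, from the goat assembly ARS1.2, and the ID given there for STAT5B has no deposited locus. In that table STAT5B and LOC102185866 lie between GHDC and STAT3. On scaffold NW_005100886.1 of the deposited values, the entries between GHDC and STAT3 with a gene ID were LOC102185866 and the ID 102185603, which the table does not hold. LOC102185866, from 18109459 to 18130103, had 34.3, 20.3 and 34.2 FPKM in the early-labelled, peak-labelled and late-labelled library. The entry 102185603, from 18034580 to 18072792, had 20.0, 12.1 and 21.9 FPKM. Both were lowest in the peak-labelled library, at a log2 ratio over early of -0.76 and -0.73, while STAT3 next to them had 41.3, 40.9 and 38.6 FPKM. Position does not name a gene, and these entries are not counted as STAT5A or STAT5B here. They were looked at after their values had been seen.

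All 3 feedback inhibitors were lower in the peak-labelled than in the early-labelled library, by 2.03-fold to 3.82-fold. Of protein-coding genes, 6.8% were at least 2-fold lower there, and SOCS1 stood at the limit of that call. CISH, the SH2-domain inhibitor that STAT5 induces, had 16.0 FPKM in the early-labelled, 4.19 FPKM in the peak-labelled and 9.50 FPKM in the late-labelled library, at its locus on scaffold NW_005100911.1 from 28828363 to 28833812. The peak-labelled library was lowest, 3.82-fold under early and 2.27-fold under late, and late lay 1.68-fold under early. When libraries were rescaled to the sum without the 100 most abundant genes, late exceeded peak by 0.98 on the log2 scale, just short of 2-fold. SOCS2, the inhibitor best known for restraining growth hormone signalling, had 24.0, 7.64 and 24.99 FPKM in the same order, at its locus on scaffold NW_005100666.1 from 13161786 to 13167737. It was 3.14-fold lower in the peak-labelled than in the early-labelled library and 3.27-fold lower than in the late-labelled one, and the early-labelled and late-labelled values were 1.04-fold apart.

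SOCS1, which binds and blocks the JAK kinases, followed another order. Its locus spans 544 nt on scaffold NW_005100934.1 from 7458949 to 7459492, and it had 4.14 FPKM in the early-labelled, 2.04 FPKM in the peak-labelled and 1.29 FPKM in the late-labelled library. The late-labelled library was the lowest, 3.21-fold under early. The difference between early and peak was 2.03-fold, at the limit of the call, and it was no longer called with 0.1 added to both FPKM or with ratios centred on the median of protein-coding genes. These are the lowest levels of the set, on a short locus. Relative to JAK2, SOCS2 stood at 0.792, 0.257 and 0.841 and CISH at 0.528, 0.141 and 0.320 in the early-labelled, peak-labelled and late-labelled library.

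ELF5, the ETS factor that drives secretory differentiation of luminal progenitors, was the most abundant gene of the set in every library. It had 879 FPKM in the early-labelled, 244 FPKM in the peak-labelled and 875 FPKM in the late-labelled library, at its locus on scaffold NW_005100826.1 from 10206310 to 10257058. The peak-labelled library was 3.61-fold under early and 3.59-fold under late, and early and late were level. Even at its lowest, ELF5 stood at the 99.3 percentile of protein-coding genes of that library. EHF, a related ETS factor whose locus begins 114 kb further along the same scaffold, had 181, 93.6 and 173 FPKM, with the same library lowest. The ratio of ELF5 to EHF was 4.84, 2.60 and 5.07, so that ELF5 differed more than its neighbour.

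NFIB, a nuclear factor I protein that acts beside STAT5 on milk genes, had 81.5 FPKM in the early-labelled, 51.02 FPKM in the peak-labelled and 90.4 FPKM in the late-labelled library, on scaffold NW_005100736.1 from 6534747 to 6795235. The lowest and highest values lay 1.77-fold apart, and no pair reached 2-fold. The related NFIA, NFIC and NFIX had lower levels, between 6.85 and 12.5 FPKM over the libraries. Their log2 ratios of peak over early were -0.02 for NFIA, 0.35 for NFIC and 0.28 for NFIX, against -0.68 for NFIB.

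**Figure D1:**
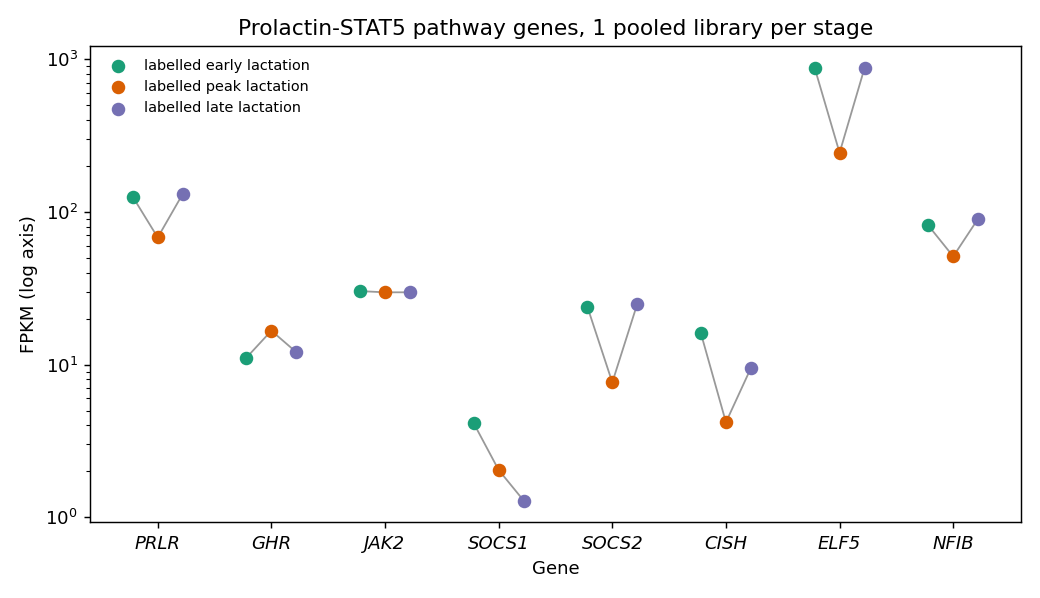
FPKM (log axis) of the 8 measured genes in the early-labelled, peak-labelled and late-labelled library, 1 pooled library of 5 goats each, so there are no error bars and lines only join the points of a gene. ELF5, SOCS2, CISH, PRLR and NFIB are lowest in the peak-labelled library, and JAK2 is level at 29.7 to 30.3 FPKM. GHR is highest in the peak-labelled library and SOCS1 is lowest in the late-labelled one.

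In each library the order of levels began with ELF5, PRLR, NFIB and JAK2. SOCS2, CISH, GHR and SOCS1 followed in the early-labelled library, with CISH and GHR 16.0 and 11.1 FPKM. In the peak-labelled library GHR, at 16.7 FPKM, moved ahead of SOCS2 and CISH, and in the late-labelled library GHR, at 12.0 FPKM, stood between SOCS2 and CISH. Without replicates it cannot be said which neighbours in these orders differ beyond their spread.

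Between the peak-labelled and early-labelled library, 4 of the 8 genes were apart at least 2-fold, SOCS1, SOCS2, CISH and ELF5, and all 4 were lower in the peak-labelled one. Of all protein-coding genes, 17.7% were apart in this comparison and 6.8% in this direction. The median log2 ratio of the 8 genes was -0.95, against -0.03 over all. Between the late-labelled and early-labelled library, SOCS1 alone was apart among the 8, lower in late, against 8.71% of protein-coding genes in either direction, 6.74% lower and 1.97% higher in late, and the median log2 ratio was 0.03. Between the late-labelled and peak-labelled library, SOCS2, CISH and ELF5 were apart, all 3 higher in the late-labelled one, against 25.9% of protein-coding genes in either direction and 8.56% in this one. Each library enters 2 of the 3 comparisons. If the labels peak and late are exchanged, the first and second comparison trade places and the third changes sign, and the low library of SOCS2, CISH and ELF5 is then the late one.

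The single genes can be placed among the 11479 protein-coding genes that reached 1 FPKM in both the peak-labelled and the early-labelled library. Lower ratios of peak over early than that of CISH were found for 0.80% of them, lower than ELF5 for 0.94% and lower than SOCS2 for 1.52%. For SOCS1 it was 5.55%, for PRLR 7.30% and for NFIB 12.0%, while 83.8% had a lower ratio than GHR. These places describe this pair of libraries and are not p-values. The places for late over early are among the 11234 protein-coding genes that reached 1 FPKM in both of these libraries. Here SOCS1 had the most extreme place, with 0.35% of genes lower, followed by CISH with 4.46%.

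**Figure D2:**
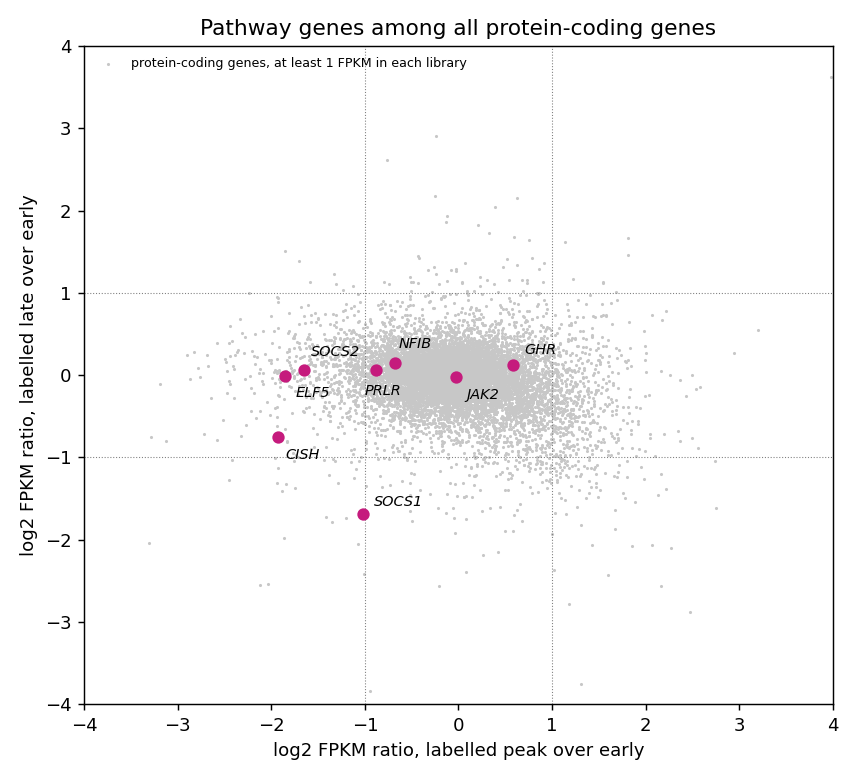
Log2 FPKM ratio of the peak-labelled over the early-labelled library (x axis) against that of the late-labelled over the early-labelled library (y axis), for 11087 protein-coding genes with at least 1 FPKM in each library (grey; 4 lie outside the axes) and the 8 measured genes (named); dotted lines mark 2-fold. ELF5, SOCS2 and CISH lie left of the 2-fold line, and SOCS1 lies just left of it and low on the y axis. PRLR and NFIB lie between that line and the centre, JAK2 is at the centre and GHR is to the right.

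The patterns over the 3 libraries fell into a few shapes. The measure is the distance between log2 FPKM profiles after each gene is centred on its own mean, and the closest pairs were SOCS2 with ELF5 at 0.15 and PRLR with NFIB at 0.15. SOCS2 and ELF5 share the deep minimum in the peak-labelled library, and PRLR and NFIB a shallower one. Of the 8 genes, 6 were lowest in the peak-labelled library, JAK2 among them by a log2 difference of 0.00086 from the next, as were 45.5% of the 11087 protein-coding genes. A value at least 2-fold under both other libraries was found for 3 of the 8 and for 4.798% of the protein-coding genes. So few libraries allow few shapes, and near neighbours are many for most genes. Within a distance of 0.1 lay 821 genes for JAK2, 249 for NFIB, 166 for GHR, 144 for PRLR, 29 for SOCS2, 21 for ELF5, 2 for CISH and 0 for SOCS1. The nearest genes were LRRC8C, RASSF4 and UGP2 for ELF5, at distances of 0.01 to 0.04, and EDNRB, MUC20 and CMTM8 for SOCS2, at 0.01 to 0.04. For CISH they were GPRC5B, THBD and CHRNE, at 0.04 to 0.11, and for SOCS1 FABP7, LCAT and CD7, at 0.13 to 0.24.

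Around these genes, 53 others of cytokine receptor signalling were listed, and 51 had a locus. Between the peak-labelled and early-labelled library 8 were apart, 5 higher and 3 lower in peak, with a median log2 ratio of 0.10, where 10.9% of protein-coding genes were higher and 6.8% lower. Centred on the median of 10 epithelial markers, a setting chosen after seeing the data, the split was 3 higher and 5 lower. In the same setting 981 of 13019 protein-coding genes were higher and 1374 lower. Between late and early 3 of the 51 signalling genes were apart, all lower in late, where 6.74% of protein-coding genes were lower. Between late and peak it was 11, of which 3 were higher and 8 lower in late, against 8.56% and 17.4% of protein-coding genes. The 53 genes were chosen with results of these data known.

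Among the other feedback genes, SOCS6 and SOCS3 went opposite ways. SOCS6, an inhibitor acting on receptor kinases, had 23.0, 7.59 and 17.6 FPKM in the early-labelled, peak-labelled and late-labelled library, lowest in the same library as SOCS2 and CISH. SOCS3, the inhibitor induced through STAT3, had 4.87, 10.7 and 1.69 FPKM, highest there. SOCS2 was therefore 4.93 times SOCS3 in the early-labelled, 0.714 times in the peak-labelled and 14.8 times in the late-labelled library. The remaining SOCS genes, SOCS4, SOCS5 and SOCS7, and the phosphatases PTPN1, PTPN2, PTPN6 and PTPN11 were within 2-fold in each comparison, as were PIAS1 to PIAS4.

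Of the other kinases and STAT factors, JAK1 had 112, 65.3 and 126 FPKM, within 2-fold in each comparison, while JAK3, the kinase of lymphocyte cytokine receptors, had 3.36, 22.7 and 1.10 FPKM. STAT4 had 0.733, 2.23 and 0.423 FPKM. Both JAK3 and STAT4 were highest in the peak-labelled and lowest in the late-labelled library. TYK2, STAT2, STAT3 and STAT6 were within 2-fold throughout.

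Among the other receptors, CSF2RB, the shared beta chain of receptors that signal through JAK2 and STAT5, had 200, 65.8 and 206 FPKM and was lowest in the peak-labelled library. The lymphocyte receptor chains IL7R and IL2RG had the opposite order, with 6.46, 14.3 and 2.003 FPKM for IL7R and 8.27, 20.6 and 4.86 FPKM for IL2RG. OSMR, with 12.9, 20.1 and 6.77 FPKM, and LEPR, with 5.52, 10.4 and 5.02 FPKM, were apart between peak and late. Among 17 adaptors, cofactors and factors, GAB1, a docking protein of receptor signalling, was alone apart, with 15.2, 6.48 and 20.2 FPKM. It was apart between peak and early and between late and peak. Of all protein-coding genes, 17.7% and 25.9% were apart in these comparisons.

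**Figure D3:**
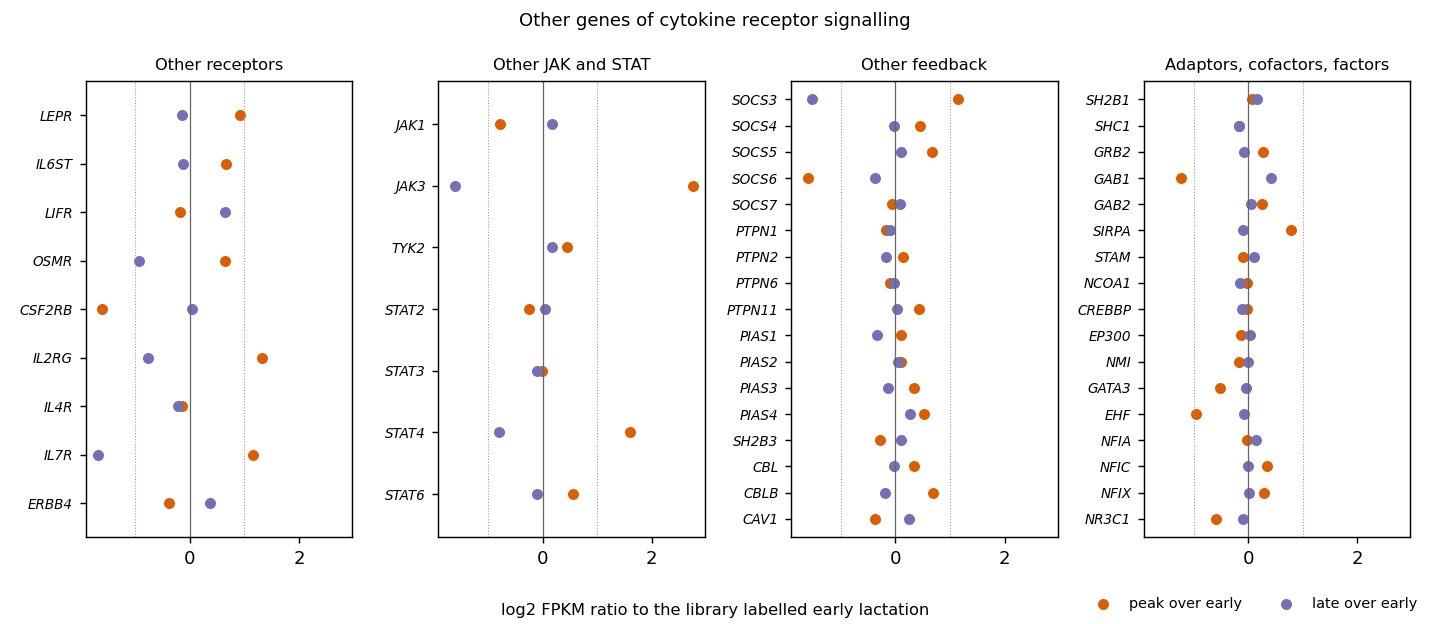
Log2 FPKM ratio to the early-labelled library of 50 other signalling genes with a locus, in 4 groups, for the peak-labelled (orange) and late-labelled library (violet), with dotted lines at 2-fold. JAK3, STAT4, IL7R, IL2RG and SOCS3 are to the right in the peak-labelled library, and CSF2RB, SOCS6 and GAB1 to the left.

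Of the milk genes listed as STAT5 targets, 6 of 8 were lowest in the peak-labelled library, as ELF5, SOCS2 and CISH were. Of protein-coding genes with at least 1 FPKM in each library, 45.5% were lowest there. Of 10 milk genes on the list, 8 had a locus, and CSN2 and CSN1S2 had none. Between the peak-labelled and early-labelled library 7 of the 8 were apart, all lower in peak, against 6.8% of protein-coding genes in this direction, and the eighth, LTF, had a log2 ratio of -0.95. CSN3, kappa-casein, had 25445, 3989 and 27391 FPKM in the early-labelled, peak-labelled and late-labelled library, CSN1S1, alpha-s1-casein, 25057, 12017 and 39445 FPKM, and PAEP, beta-lactoglobulin, 84874, 26999 and 83113 FPKM. LALBA, the lactose synthase subunit, had 70053 and 15214 FPKM in the first 2 and was listed at 0 in the late-labelled library, where CSN3 and PAEP were abundant, so no fold is given for it. LTF, lactoferrin, was low in the late-labelled library instead, with 1074, 556 and 75.3 FPKM. The ratio of PAEP to ELF5 was 96.5, 111 and 94.9 and thus differed little between libraries, while that of CSN3 to ELF5 was 28.9, 16.4 and 31.3. PAEP and CSN3 do not stand for the whole list. The log2 ratio of peak over early lay between -2.67 and -0.95 over the 8 milk genes. It was -1.06 for CSN1S1, a smaller difference than the -1.85 of ELF5.

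Of 11 listed targets outside the milk genes, 10 had a locus, and 3 were lowest and 7 highest in the peak-labelled library. Of protein-coding genes with at least 1 FPKM in each library, 45.5% were lowest and 39.4% highest there. Against the early-labelled library 3 of the 10 targets were at least 2-fold higher and 2 lower in peak. Of protein-coding genes 10.9% were higher and 6.8% lower by this limit. CIDEA, a lipid droplet protein, had 643, 197 and 817 FPKM and the kinase genes PIM1 and AKT1 16.4, 7.59 and 8.77 FPKM and 89.999, 49.8 and 88.1 FPKM. CCND1, a cyclin, had 5.93, 13.5 and 4.17 FPKM, IGF1 12.3, 29.9 and 10.6 FPKM, and TNFSF11, the RANK ligand, 0.864, 5.26 and 0.506 FPKM, all highest in the peak-labelled library.

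Markers of the cell types in the gland are given beside these values. All 10 epithelial markers had a locus, and their summed FPKM was 859, 986 and 800 in the early-labelled, peak-labelled and late-labelled library, most of it from keratins. Of the 10, 6 were highest and 3 lowest in the peak-labelled library, against 39.4% and 45.5% of protein-coding genes reaching 1 FPKM throughout. Among the 6, the keratin KRT8 had 126, 196 and 154 FPKM and the adhesion gene CDH1 34.5, 39.8 and 36.7 FPKM. The 3 lowest there were EPCAM with 77.8, 60.01 and 76.4 FPKM, CLDN3 with 23.1, 16.8 and 30.9 FPKM and ESRP1 with 20.9, 12.8 and 28.3 FPKM, of which ESRP1 was past 2-fold between late and peak. Relative to the median of these markers, the log2 ratio of peak over early was -2.17 for CISH, -2.09 for ELF5 and -1.89 for SOCS2. It was -1.25 for SOCS1, -1.12 for PRLR, -0.91 for NFIB, -0.26 for JAK2 and 0.35 for GHR. PRLR was thereby past 2-fold. Of the 10 immune markers 9 had a locus. Between peak and early 5 were apart, all higher in peak, against 10.9% of protein-coding genes in this direction, among them PTPRC with 17.6, 39.9 and 8.08 FPKM and CD79B with 1.08, 7.22 and 0.308 FPKM, while CD3E was listed at 0 in the early-labelled and peak-labelled library. The summed FPKM of the immune list was 309, 516 and 358, most of it from the plasma cell gene JCHAIN. Their part in the values of JAK3, IL7R, IL2RG, STAT4 and SOCS3 was not tested. In bulk tissue, fewer cells of a type and less RNA per cell cannot be told apart.

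The summed FPKM of 8 myoepithelial markers was 443, 442 and 463, that of 6 endothelial markers 142, 134 and 154, and that of 6 fibroblast markers 664, 549 and 542. Between the peak-labelled and early-labelled library 3 fibroblast markers were apart, COL1A2 and COL3A1 lower and PDGFRA higher in peak, against 17.7% of protein-coding genes. Of the myoepithelial markers 1 was apart, OXTR, with 3.83, 1.14 and 5.43 FPKM, and of the endothelial markers 0 were. As for the labelled tissue, both caseins with a locus and all 10 epithelial markers were above 0 in each library.

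**Figure D4:**
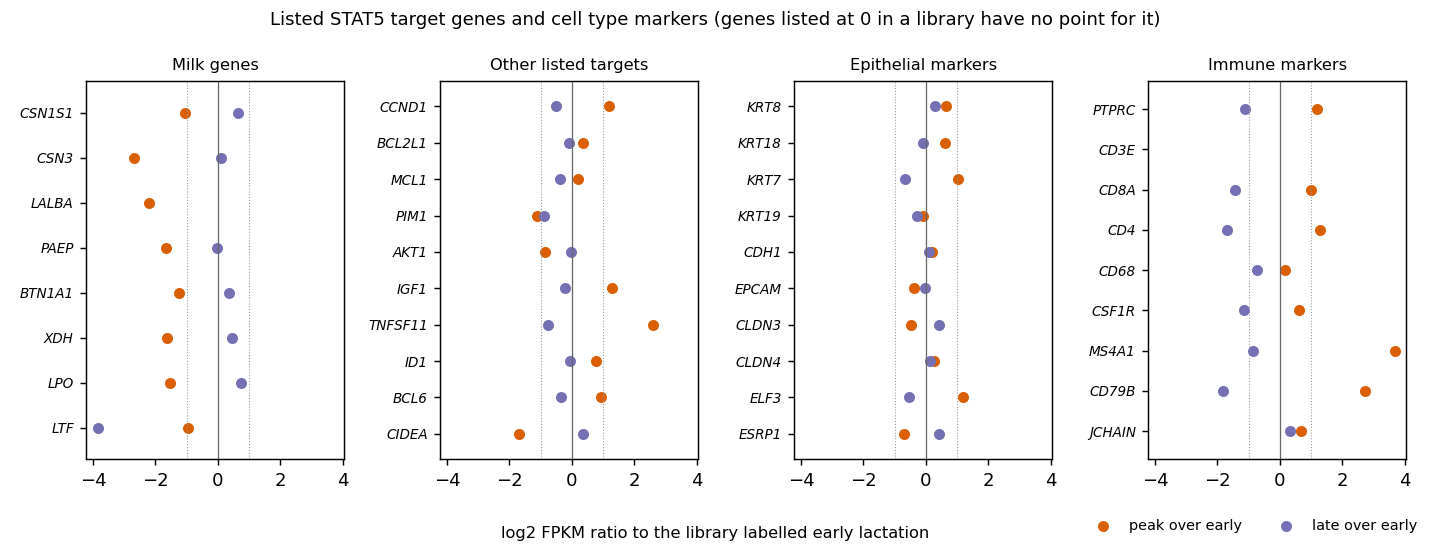
Log2 FPKM ratio to the early-labelled library of the listed STAT5 target genes, epithelial markers and immune markers, for the peak-labelled (orange) and late-labelled library (violet), with dotted lines at 2-fold; a gene listed at 0 in a library has no point for it. Milk genes lie to the left in the peak-labelled library, immune markers to the right, and the epithelial markers on both sides of 0.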

How the data were processed

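Mammary gland RNA of 5 goats per stage was pooled into 1 library. Reads were trimmed by the authors, mapped with TopHat2 2.0.9, and assembled and quantified with Cufflinks 2.1.1, as named in the submitters' processing notes, with Cuffmerge and Cuffdiff per the methods, and the authors deposited FPKM for 50041 loci in 3 columns. The methods name a goat genome version and a RefSeq assembly, and the scaffold names of the deposited loci were not tied to either here. Between 41.2% and 46.7% of values above 0 had 7 digits, and of these at least 95.7% ended in 5, as the mean of 2 values of 6 digits would, and what was averaged is unknown.

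Columns were assigned by the sample descriptions. Gene IDs were matched to the ARS1.2 gene table for symbols, for 14403 of 15274 loci with an ID, and summed per gene. Ratios were taken on FPKM with 0 set to 0.001 and called at 2-fold, with no test. The code for fold calling was checked on simulated data, which says nothing of the spread between replicates. The members and lists were chosen with earlier results of these data known, and some listed symbols had no locus. All 10 members are named; of the other signalling genes, those apart at least 2-fold with at least 1 FPKM in both libraries; the 3 nearest profiles of each member called apart. STAT4, the listed targets, the genes within 2-fold and the markers were named outside this rule, after their values were seen. Alternatives were other folds, added pseudocounts, filters, the highest locus alone, 3 scalings and exchanged labels. One gene of the signalling list is counted but not reported here by name. No sequence was used. Python 3.11.15, numpy 2.4.6, pandas 2.3.3 and matplotlib 3.10.9 were used.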

Additional observations from a re-analysis of the deposited data

How the results depend on the processing

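At 4-fold or more, 0 of the members and 1, 0 and 5 of the other signalling genes were apart for peak over early, late over early and late over peak, against 3.56%, 3.28% and 8.66% of protein-coding genes. At 1.5-fold or more it was 7, 2 and 6 members and 18, 8 and 20 of 51 signalling genes, against 36.8%, 17.8% and 44% of protein-coding genes. Both shifts follow from the threshold. With the peak and late labels exchanged, peak over early gave 1 member and 3 signalling genes and late over early 4 and 8, and among the genes called apart log2 ratios changed sign to 0.0602 for SOCS2 in peak over early, and to -1.71 for SOCS2, -1.18 for CISH and -1.85 for ELF5 in late over peak. Among those not called, PRLR and NFIB changed sign to 0.06 and 0.15 in peak over early, both and SOCS2 also in late over early, to -0.89, -0.68 and -1.65, and every late over peak ratio changes sign by construction. The other 50 counts stayed within 1.5 times their value. SOCS1 in peak over early was no longer apart with a pseudocount of 0.1 or 1, with ratios centred on all protein-coding genes, or with libraries rescaled to the sum without the 100 highest genes, and CISH in late over peak was no longer apart with the last of these. That rescaling shifted ratios of peak over early by 0.19 and of late over peak by 0.20 on the log2 scale, and moved the protein-coding genes higher and lower in peak than in early from 1421 and 886 to 1933 and 627. Centring on the median of the epithelial markers, chosen after seeing the data, moved them to 981 and 1374 and added PRLR to the members apart in peak over early and in late over peak. No replicate could be left out with 1 library per stage. No paired analysis was possible because 1 pooled library stands for each stage. The lack of read numbers limits what can be said of SOCS1 and other genes of few FPKM.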
